A study of Mus musculus with 8 samples.

Results

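Inhibitory checkpoint receptors are surface proteins that restrain T cell activation. The 10 genes described here are Pdcd1, Havcr2, Lag3, Tigit, Ctla4, Btla, Cd160, Cd200, Cd5 and Entpd1. They were fixed by name and not by a cut on their values, but earlier results of these data were known at that point. All 10 were listed for both experiments, among 49490 genes in the Trim28 experiment and 55291 in the IL-2 experiment. Polyadenylated RNA was sequenced from mouse CD8+ T cells of spleens and lymph nodes. In the first experiment, Trim28-/- cells activated in vitro were compared with activated Trim28fl/fl cells, whose genotype label reads WT. In the second, cells stimulated through CD3 and CD28 for 3 days were exposed to anti-IL-2, an antibody that binds the growth factor interleukin 2, and were compared with untreated cells given the same stimulation, both of WT genotype. All 4 groups were therefore activated, and no resting cells were measured. Each group had 2 libraries. The driver of the Trim28 deletion, the ages of the mice and the length of activation in the first experiment are not given in the sources used here. Nothing states whether the libraries of a group came from separate mice or cultures, so the p-values measure only the spread between libraries, which may be technical.

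PD-1 (Pdcd1), CTLA-4 (Ctla4), TIGIT and BTLA belong to the immunoglobulin superfamily. PD-1 and BTLA recruit tyrosine phosphatases to their cytoplasmic tails, while CTLA-4 takes CD80 and CD86 away from the costimulator CD28. LAG-3 binds MHC class II, TIM-3 (Havcr2) binds galectin-9 and other ligands, and TIGIT competes with CD226 for the poliovirus receptor. BTLA and CD160 share the ligand HVEM. CD5 lowers the response to T cell receptor signals, CD200 is itself a ligand for the inhibitory receptor CD200R, and CD39 (Entpd1) is an enzyme that breaks down extracellular ATP, so Cd200 and Entpd1 encode checkpoint molecules but not receptors in the strict sense. Interleukin 2 acts through the kinases JAK1 and JAK3 and the transcription factor STAT5, and TRIM28 is a co-repressor brought to chromatin by zinc finger proteins.

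Promoter sequences are shown for Havcr2, whose messages fell furthest in both experiments, for Btla, which rose most with anti-IL-2, for Cd160, which moved in opposite directions in the experiments, and for Ctla4. Each is the stretch of 250 bases before a RefSeq transcription start on GRCm38.p6, written 5′ to 3′ on the strand of the gene. Capitals mark matches, on either strand, to TTCNNNGAA (STAT), TGGAAA (NFAT), TGANTCA (AP-1), GGTGTGA (T-box) or TGTGGT (RUNX). The windows are Havcr2 at chr11:46454681-46454930 on the plus strand, Btla at chr16:45224087-45224336 on the plus strand, an inner start of Cd160 at chr3:96814522-96814771 on the minus strand, and Ctla4 at chr1:60908775-60909024 on the plus strand.
Havcr2: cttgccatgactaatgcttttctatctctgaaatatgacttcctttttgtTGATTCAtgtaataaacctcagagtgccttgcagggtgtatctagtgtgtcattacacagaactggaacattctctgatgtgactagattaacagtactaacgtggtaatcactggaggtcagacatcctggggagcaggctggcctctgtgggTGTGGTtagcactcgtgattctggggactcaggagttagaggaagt
Btla: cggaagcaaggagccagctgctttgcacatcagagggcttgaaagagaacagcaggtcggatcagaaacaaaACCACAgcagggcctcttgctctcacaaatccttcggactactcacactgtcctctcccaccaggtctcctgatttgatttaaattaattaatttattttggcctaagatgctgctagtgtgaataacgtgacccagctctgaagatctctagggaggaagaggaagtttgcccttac
Cd160: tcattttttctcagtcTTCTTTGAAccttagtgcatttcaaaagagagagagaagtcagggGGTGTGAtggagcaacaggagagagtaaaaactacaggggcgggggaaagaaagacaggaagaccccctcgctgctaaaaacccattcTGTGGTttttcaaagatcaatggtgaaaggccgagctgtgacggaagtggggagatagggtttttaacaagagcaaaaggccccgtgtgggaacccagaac
Ctla4: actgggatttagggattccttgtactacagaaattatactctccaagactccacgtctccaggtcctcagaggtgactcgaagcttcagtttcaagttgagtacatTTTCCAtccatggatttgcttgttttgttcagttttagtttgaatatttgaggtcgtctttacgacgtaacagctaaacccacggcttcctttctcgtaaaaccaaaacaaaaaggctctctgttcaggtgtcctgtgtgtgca
The Havcr2 window held an AP-1 match whose first base lay 200 bases before the start and a RUNX match at 46 bases. The inner Cd160 window held STAT, T-box and RUNX matches at 234, 189 and 101 bases, Btla a RUNX match at 178 bases and Ctla4 an NFAT match at 144 bases. The window of the other Cd160 start, at chr3:96829352-96829601, held a RUNX match at 76 bases and no STAT, T-box, NFAT or AP-1 match. In the Btla window, 22 bases overlapped an exon of Btla itself in the GENCODE annotation. RefSeq gave 11 windows for 9 of the 10 genes. Of the 11, 5 held the RUNX letters, both Cd160 windows among them, against 14.0% of 32851 windows of the same length. The STAT, NFAT, AP-1 and T-box letters each occurred in 1 of the 11 windows, against 7.02%, 18.6%, 6.75% and 3.33% of all windows. These matches describe letters only, not bound sites.

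The libraries held between 13222831 and 17069569 gene reads. Trim28 had normalised read counts of 415 and 458 in knockout libraries, against 4262 and 4323 in control libraries (log2 fold change -3.30). CD8 T cell markers (Cd3d, Cd3e, Cd8a, Cd8b1 and Trac) were present in every library, with a summed level of 1597 to 2144 CPM, that is, gene reads scaled to a common library total. Cd4 was at 0.597 CPM or less throughout, and the NK cell gene Ncr1 was at 0. Foxp3, the transcription factor of regulatory T cells, was low but moved with the groups, at 3.28 and 3.71 CPM in knockout libraries against 0.302 and 0.378 CPM in control libraries, and at 0.528 and 0.586 CPM with anti-IL-2 against 3.36 and 2.95 CPM in untreated cells. In bulk RNA, fewer cells of a type and less RNA per cell cannot be told apart, which holds for every value that follows.

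Loss of Trim28 split the checkpoint genes. Pdcd1, Lag3, Btla, Cd160 and Cd5 were higher in Trim28 knockout cells than in control cells, by 1.19-fold to 1.90-fold. Havcr2 and Entpd1, the most weakly expressed of the 10, were 4.75-fold and 3.27-fold lower in knockout cells, and Ctla4 was slightly lower. Tigit and Cd200 did not pass the test. In all, 5 of the 10 genes were higher and 3 lower at a limma adjusted p under 0.05, where 61% of the 15415 tested genes were called, 32.9% higher and 28.2% lower. The balance over all genes turned with upper-quartile rescaling, from which 4259 genes were called higher and 5078 lower in place of 5065 and 4344. It also turned slightly with TMM rescaling (4670 higher, 4707 lower) and with edgeR (4548 and 4571). The checkpoint genes still had 5 higher and 3 lower in each of these settings. The share of checkpoint genes called therefore stood not far above that of all genes. Their median log2 fold change was 0.15, against 0.031 for all tested genes, and the median of the absolute values was 0.45 against 0.32. Entpd1, which is among the 3 lower and enters both medians, was tested only because its control libraries reached the minimum level.

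Among the receptors of the T cell surface that bind B7 family ligands, Pdcd1 and Ctla4 moved apart in the knockout. Pdcd1, on chromosome 1 (94038305 to 94052553, minus strand, GRCm38), had normalised read counts of 3967 and 4115 in knockout libraries, against 2345 and 2384 in control libraries. Both knockout values lay well above both control values (log2 fold change 0.77, SE 0.031, limma adjusted p = 2.17e-05). Ctla4, also on chromosome 1 (60887000 to 60915832, plus strand), had 5724 and 5622 in knockout libraries, against 5995 and 6133 in control libraries. The groups did not overlap, but the difference was small (log2 fold change -0.096, SE 0.027, limma adjusted p = 0.0222). That call did not survive several other settings, with an adjusted p of 0.0662 with the replicate number as a block, 0.0793 to 0.121 without knockout replicate 1, knockout replicate 2 or control replicate 2, and 0.0554 in the authors' deposited table.

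Havcr2, the TIM-3 gene on chromosome 11 (46454935 to 46481255, plus strand), showed the largest change of the 10 genes. It had 48.3 and 49.0 normalised reads in knockout libraries, against 224 and 238 in control libraries. All knockout values lay far below the control values (log2 fold change -2.23, SE 0.086, limma adjusted p = 1.89e-05). Summed over each group, 99 reads in knockout libraries stood against 456 in control libraries, so that control cells held 4.75 times the level of knockout cells (95% interval 3.82 to 5.97, counting error only). Entpd1, the CD39 gene on chromosome 19 (40612366 to 40741602, plus strand), fell in the same direction from a much lower level. Its normalised read counts were 6.89 and 4.90 in knockout libraries, against 20.3 and 18.2 in control libraries, without overlap (log2 fold change -1.57, SE 0.27, limma adjusted p = 0.00337). With 12 reads in knockout libraries and 38 in control libraries, the control level was 3.27 times that of the knockout (95% interval 1.67 to 6.87). Entpd1 reached the minimum of 10 normalised reads only in control libraries, and its call was lost with DESeq2 on the recovered reads (adjusted p = 0.0964) and in the authors' deposited table (adjusted p = 0.136).

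Myeloid cells also express Havcr2 and Entpd1, and the summed level of 8 myeloid and dendritic cell markers was 10.6 and 11.5 CPM in knockout libraries, against 19.1 and 21.5 CPM in control libraries. Of these 8 markers, 1 was called lower and 0 higher, and that gene, Cd68, made up most of the sum. Of the others, Lyz2, Itgam, Csf1r and Itgax reached at most 0.891 CPM in knockout libraries and at most 3.40 CPM in control libraries, and Adgre1, Siglech and Flt3 were at 0 in all 4 libraries. The part of such cells in the 2 decreases was not tested.

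Lag3, whose product is a relative of CD4 that binds MHC class II, rose in the knockout. Located on chromosome 6 (124904361 to 124911705, minus strand), it had 6298 and 6329 normalised reads in knockout libraries, against 4658 and 4895 in control libraries. Knockout and control values were clearly separated (log2 fold change 0.40, SE 0.032, limma adjusted p = 0.000175). Tigit on chromosome 16 (43648867 to 43664146, minus strand) had 1942 and 1999.8 in knockout libraries, against 1898 and 1876 in control libraries. These values lay close together, although they did not overlap, and the difference did not pass (log2 fold change 0.063, 95% interval -0.017 to 0.14, limma adjusted p = 0.141).

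Both HVEM receptors rose in the knockout. Btla, on chromosome 16 (45224315 to 45257670, plus strand), had 4513 and 4398 normalised reads in knockout libraries, against 3168 and 3125 in control libraries (log2 fold change 0.50, SE 0.028, limma adjusted p = 5.44e-05). Cd160, which encodes a receptor held in the membrane by a lipid anchor, lies on chromosome 3 (96798763 to 96829351, minus strand) and had 1980.3 and 1980.2 in knockout libraries, against 1711 and 1629 in control libraries. The groups were separate for both genes, and the increase of Cd160 was the smaller (log2 fold change 0.25, SE 0.036, limma adjusted p = 0.00195). Exons of Cd160 share 68 bases, 2.57% of their length, with Pdzk1 on the other strand, a gene with at most 21.6 normalised reads in these 4 libraries.

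Cd5 had the largest increase of the 10 genes in the knockout. On chromosome 19 (10717116 to 10739002, minus strand), it had 9581 and 9613 normalised reads in knockout libraries, against 5101 and 5011 in control libraries. Both knockout values were far above both control values (log2 fold change 0.92, SE 0.024, limma adjusted p = 6.31e-06). Cd200, on chromosome 16 (45382135 to 45409053, minus strand), had 5231 and 5243 in knockout libraries, against 4979 and 5045 in control libraries. The knockout values were slightly higher without overlap, but the difference did not pass (log2 fold change 0.063, 95% interval 0.0023 to 0.12, limma adjusted p = 0.0689). B cells also express Cd5, Btla and Cd200, and the summed level of 5 B cell markers was 163 and 161 CPM in knockout libraries, against 119 and 117 CPM in control libraries, with 1 marker called higher and 2 lower. Nearly all of that sum was Ighm, while the defining marker Ms4a1 was at 0 in these 4 libraries. Cd79a, at 0.224 and 0.223 CPM in knockout libraries, against 1.13 and 1.21 CPM in control libraries, was called lower. Cd79b, at 0.448 and 0.371 CPM against 1.36 and 1.51 CPM, was the other marker called lower. Both were tested only because their control libraries reached the minimum level. The part of B cells in these values was not tested.

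**Figure D1:**
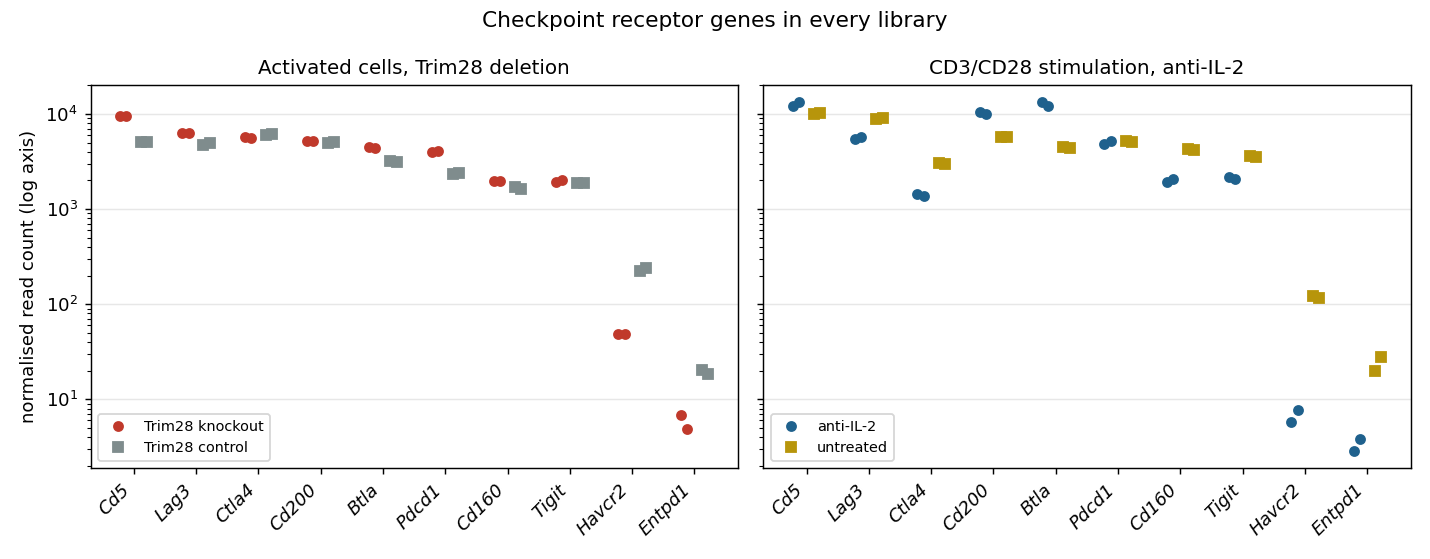
Normalised read count (log axis) of each checkpoint gene in every library, with Trim28 knockout and control libraries on the left and anti-IL-2 and untreated libraries on the right. Each point is 1 library; in both experiments Havcr2 and Entpd1 lie far below the other 8 genes and are lower in knockout and in anti-IL-2 libraries.

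With anti-IL-2, most of the checkpoint genes fell, and 3 rose. Havcr2, Entpd1, Ctla4, Cd160, Tigit and Lag3 were lower in cells stimulated with anti-IL-2 than in untreated cells, by 1.59-fold (Lag3) to 17.8-fold (Havcr2). Btla, Cd200 and Cd5 were higher, with Btla at 2.84 times its untreated level. Pdcd1 did not pass the test. At a limma adjusted p under 0.05, 3 of the 10 genes were higher and 6 lower, where 60.3% of the 13978 tested genes were called, 31.4% higher and 28.9% lower. The balance over all genes turned slightly with upper-quartile rescaling (4173 higher, 4201 lower) and with DESeq2 (3250 and 3262). The checkpoint genes kept 3 higher and 6 lower in these settings. The median log2 fold change of the 10 genes was -0.71, against 0.018 for all tested genes, and the median absolute value was 0.96 against 0.35. Havcr2 and Entpd1 are among the 6 lower and enter both medians, although they reached 10 normalised reads only in untreated libraries. Nothing is therefore read from the count of lower genes or from these medians.

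Havcr2 was nearly lost with anti-IL-2. It had 5.73 and 7.67 normalised reads in anti-IL-2 libraries, against 122 and 116 in untreated libraries (log2 fold change -3.97, SE 0.26, limma adjusted p = 1.14e-10). From 14 reads with anti-IL-2 and 230 in untreated cells, the untreated level was 17.8 times that with anti-IL-2 (95% interval 10.4 to 33.0, counting error only). Entpd1 had 2.86 and 3.84 normalised reads in anti-IL-2 libraries, against 19.7 and 27.8 in untreated libraries (log2 fold change -2.50, SE 0.42, limma adjusted p = 4.33e-05). From 7 and 46 reads, its untreated level was 7.10 times that with anti-IL-2 (95% interval 3.18 to 18.6). For both genes the anti-IL-2 values lay below 10 normalised reads and below every untreated value, and each gene was tested only because its untreated libraries reached that minimum. Myeloid markers summed to 5.75 and 5.57 CPM with anti-IL-2, against 20.7 and 21.5 CPM in untreated cells, with 1 of 8 called lower (Cd68) and 0 higher. Of the others, Lyz2, Itgam, Csf1r, Adgre1, Itgax and Flt3 reached at most 0.586 CPM with anti-IL-2 and at most 0.662 CPM in untreated cells, and Siglech was at 0. The part of such cells was not tested here either.

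Ctla4 and Cd160 fell to less than 50% of their untreated levels. Ctla4 had 1425 and 1361 normalised reads in anti-IL-2 libraries, against 3080.4 and 2974 in untreated libraries (log2 fold change -1.12, SE 0.055, limma adjusted p = 1.95e-12). Cd160 had 1933 and 2071 in anti-IL-2 libraries, against 4276 and 4178 in untreated libraries (log2 fold change -1.08, SE 0.054, limma adjusted p = 2.35e-12). For neither gene did the groups come near each other. Regulatory T cells express Ctla4, Tigit and Entpd1 at high levels, and the 5 markers of CD4 and regulatory T cells summed to 134 and 126 CPM with anti-IL-2, against 78.2 and 80.5 CPM in untreated cells, with 2 called higher and 2 lower. Most of that sum was Ikzf2, at 100.2 and 90.2 CPM with anti-IL-2, against 45.3 and 51.5 CPM in untreated cells. Foxp3 was among those lower (log2 fold change -2.45). In the Trim28 experiment the same markers summed to 23.0 and 24.1 CPM in knockout libraries, against 57.0 and 59.7 CPM in control libraries, with 1 called higher, Foxp3, and 3 lower. Most of these sums came from Cd40lg and Ikzf2. Cd40lg was at 3.13 and 3.71 CPM in knockout libraries, against 25.7 and 27.2 CPM in control libraries. Ikzf2 was at 11.4 and 11.3 CPM, against 19.5 and 20.6 CPM. In both experiments Foxp3 reached 10 normalised reads only in its higher group. The part of CD4 and regulatory T cells in the values of Ctla4, Tigit and Entpd1 was not tested.

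Tigit and Lag3 fell by less with anti-IL-2. Tigit had 2189 and 2065 normalised reads in anti-IL-2 libraries, against 3607 and 3531 in untreated libraries (log2 fold change -0.75, SE 0.053, limma adjusted p = 4.74e-10). Lag3 had 5505 and 5768 in anti-IL-2 libraries, against 8869 and 9100.1 in untreated libraries (log2 fold change -0.67, SE 0.049, limma adjusted p = 6.99e-10). Values with anti-IL-2 were lower in both libraries for both genes. Pdcd1 had 4809 and 5146 in anti-IL-2 libraries, against 5128 and 5112 in untreated libraries. These groups overlapped, and the log2 fold change was -0.041 (95% interval -0.15 to 0.065, limma adjusted p = 0.501). Its sign turned on the library left out, with a log2 fold change of -0.090 without anti-IL-2 library B and 0.0073 without library A.

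The genes that rose with anti-IL-2 were a receptor, a ligand and a modulator of T cell receptor signalling. Btla had 13218 and 12164 normalised reads in anti-IL-2 libraries, against 4508 and 4423 in untreated libraries (log2 fold change 1.51, SE 0.052, limma adjusted p = 8.50e-15). Cd200 had 10391 and 10084 in anti-IL-2 libraries, against 5732 and 5716 in untreated libraries (log2 fold change 0.84, SE 0.048, limma adjusted p = 1.80e-11). Cd5 had 12125 and 13221 in anti-IL-2 libraries, against 9951 and 10116 in untreated libraries (log2 fold change 0.34, SE 0.052, limma adjusted p = 1.56e-05). In each case both anti-IL-2 values exceeded both untreated values, by the widest margin for Btla. B cell markers summed to 257 and 275 CPM with anti-IL-2, against 171 and 173 CPM in untreated cells, with 1 marker called higher and 0 lower. Here too nearly all of the sum was Ighm, and Ms4a1 was at 0.117 CPM or less. Their part in these increases was not tested.

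The effect of Trim28 loss and that of anti-IL-2 differed for 9 of the 10 genes. The difference of the log2 fold changes, knockout over control minus anti-IL-2 over untreated, was itself fitted over the 8 libraries together. It passed for 9 of the 10 genes, 7 of them positive and 2 negative, where 32.3% of the 15460 tested genes passed. Every gene except Havcr2 and Entpd1 stood above at least 88% of tested genes in level in each group. Their standard errors were 0.041 to 0.061, against 0.23 for Havcr2 and 0.42 for Entpd1. The 32.3% covers genes of all levels, so it is no matched background. The positive differences were 1.75 for Havcr2 (SE 0.23, limma adjusted p = 0.00112), 1.32 for Cd160 (adjusted p = 5.57e-06), 1.08 for Lag3, 1.02 for Ctla4, 0.81 for both Pdcd1 and Tigit, and 0.59 for Cd5 (adjusted p = 0.000285). The negative ones were -1.004 for Btla (SE 0.060, limma adjusted p = 1.91e-05) and -0.78 for Cd200 (adjusted p = 1.05e-05). For Entpd1 the difference was 0.93 with a 95% interval of -0.034 to 1.90 and did not pass (limma adjusted p = 0.130), which does not show that its 2 effects were alike. The experiments also differ in design, as 1 deletes a gene and the other adds an antibody, so a difference in effect and a difference in setting cannot be told apart.

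Lag3 and Cd160 stood apart in direction, both higher in knockout than in control cells and lower with anti-IL-2 than in untreated cells. Of the 12428 genes tested in both experiments, 433 (3.48%) were called in this way, against 2 of the 10 checkpoint genes. Havcr2, Ctla4 and Entpd1 were called lower in both experiments, as were 18.1% of all genes, and Btla and Cd5 higher in both, as were 22.5%. For the genes lower in both, nothing is read from that comparison, since Entpd1 in both experiments and Havcr2 with anti-IL-2 were tested only through their higher group, and the knockout calls of Ctla4 and Entpd1 were lost under the settings given above. Pdcd1 was called only in the knockout, and Tigit and Cd200 only with anti-IL-2, and for each of these 3 the difference of the effects passed as given above.

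**Figure D2:**
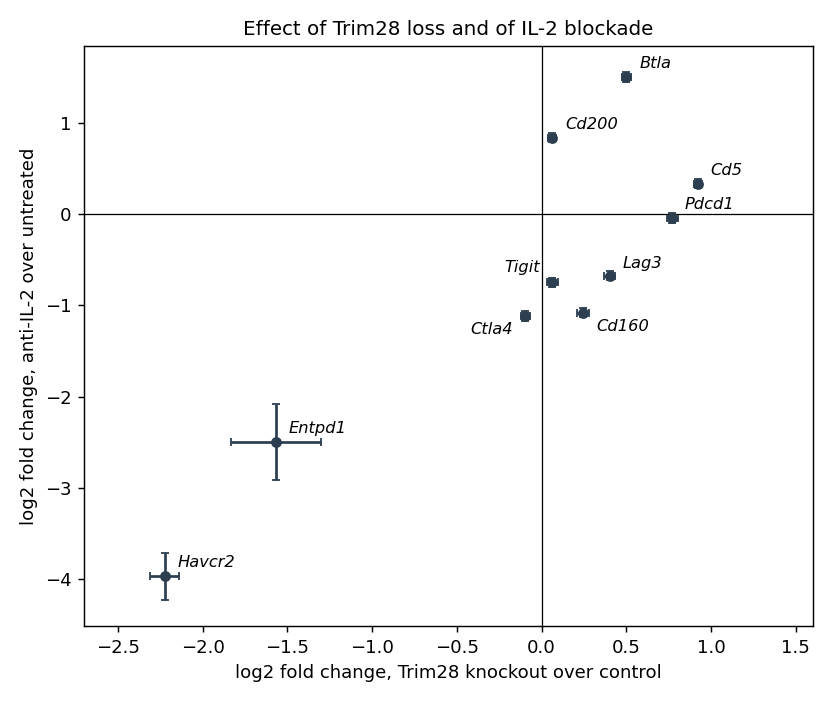
Log2 fold change of each checkpoint gene in Trim28 knockout over control (x axis) and in anti-IL-2 over untreated (y axis), with bars of 1 standard error. Havcr2 and Entpd1 lie at the lower left, Btla and Cd5 at the upper right, and Lag3 and Cd160 to the right of 0 but below it.

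Levels between genes were compared as RPKM, that is, CPM divided by the exon length in kb, and the 8 other genes far exceeded Havcr2 and Entpd1. In knockout cells the order of mean levels was Lag3 (227), Ctla4 (184), Tigit (162), Pdcd1 (159), Cd5 (148), Cd200 (119), Btla (99.4), Cd160 (56.8), Havcr2 (1.35) and Entpd1 (0.080). In control cells it was Ctla4 (194), Lag3 (169), Tigit (153), Cd200 (112), Pdcd1 (91.3), Cd5 (76.4), Btla (69.0), Cd160 (47.1), Havcr2 (6.33) and Entpd1 (0.257). Among these neighbours, Tigit and Pdcd1 in knockout cells overlapped between libraries, at 160.2 and 165 RPKM for Tigit against 156 and 161 RPKM for Pdcd1.

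Anti-IL-2 changed the order. In anti-IL-2 cells Btla led at 229 ± 14.4 RPKM (SD, n = 2), followed by Cd200 (189), Lag3 (164), Pdcd1 (158), Cd5 (158), Tigit (142), Cd160 (46.4), Ctla4 (36.6), Havcr2 (0.151) and Entpd1 (0.037). In untreated cells the order was Lag3 (248), Tigit (226), Pdcd1 (154), Cd5 (118), Cd200 (100.1), Cd160 (93.0), Btla (76.4), Ctla4 (75.5), Havcr2 (2.54) and Entpd1 (0.248). The untreated values of Btla (76.7 and 76.1) and Ctla4 (76.4 and 74.6) overlapped between libraries, and so did the anti-IL-2 values of Lag3, Pdcd1 and Cd5. Ctla4 also stood lower in untreated cells than in Trim28 control cells, but the tables were normalised separately and the cells activated in separate experiments, so that gap was not tested.

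The summed level of the 10 genes was 1157 ± 3.99 RPKM in knockout cells and 918 ± 8.84 RPKM in control cells (SD, n = 2 each), 26.0% higher in the knockout. It was 1122 ± 4.47 RPKM with anti-IL-2 and 1093 ± 6.18 RPKM in untreated cells, a difference of 2.65%. That near equality depends on the scaling by exon length. Without it, the 10 genes summed to 3172 and 3170 CPM with anti-IL-2, against 2617 and 2646.5 CPM in untreated libraries, a clear rise. Within the RPKM sum the make-up changed. Btla, Cd200 and Cd5 together made up 51.8% and 50.8% of it in anti-IL-2 libraries, against 26.9% and 27.0% in untreated libraries. Lag3, Tigit, Ctla4 and Cd160 together made up 34.6% and 34.7% with anti-IL-2, against 58.7% and 58.6% in untreated cells. These 2 groups were formed by the direction of their change, so the shares describe the size of the shift and are no test of it. With Trim28 loss, Btla, Cd200 and Cd5 made up 31.8% and 31.5% in knockout libraries against 28.3% and 27.9% in control libraries. Lag3, Tigit, Ctla4 and Cd160 made up 54.5% and 54.5% in knockout libraries against 61.1% and 61.4% in control libraries.

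**Figure D3:**
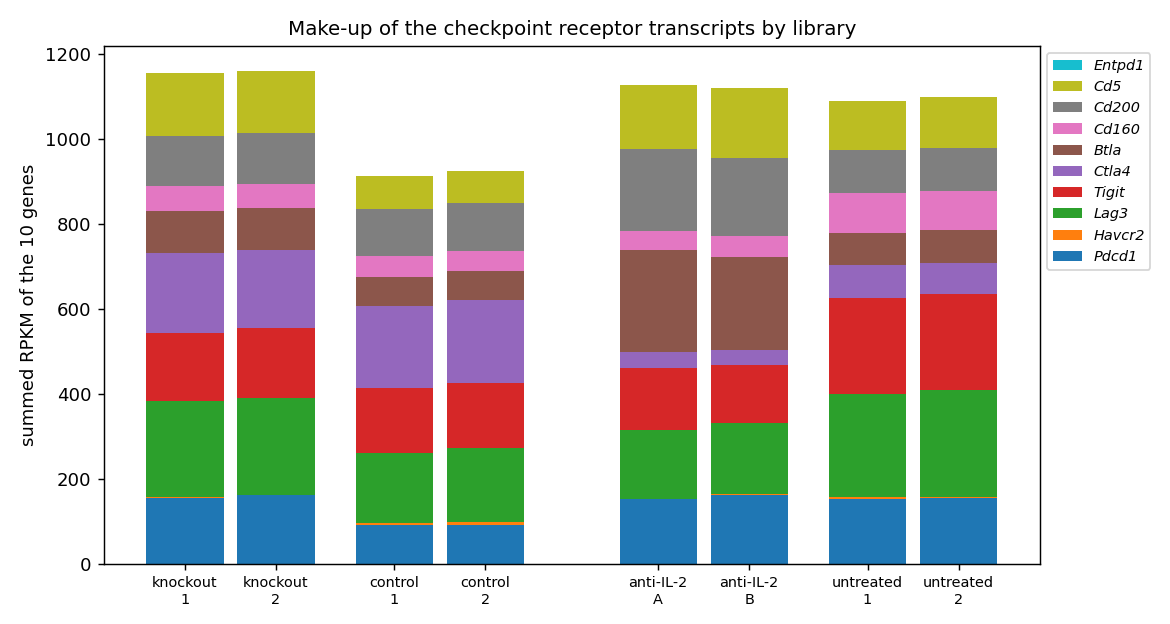
Summed RPKM of the 10 checkpoint genes in each library, stacked by gene. On this length-scaled measure the bars reach nearly equal heights with anti-IL-2 and in untreated cells. Btla and Cd200 take more and Ctla4, Cd160 and Tigit less of the sum with anti-IL-2. In the Trim28 experiment the knockout bars are higher than the control bars.

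Ligands and counter-receptors of the checkpoint molecules, which T cells can make themselves, had 4 of 14 tested genes called higher and 8 lower in the knockout, where 32.9% of all tested genes were higher and 28.2% lower. Lgals9, the galectin-9 gene whose product binds TIM-3, had 1384 and 1398 normalised reads in knockout libraries, against 675 and 653 in control libraries (log2 fold change 1.07). Pvr, a ligand of TIGIT, also rose (0.74), while Lgals3, a galectin that binds LAG-3, and H2-Ab1, a chain of its MHC class II ligand, fell by 1.01 and 1.65 on the log2 scale. With anti-IL-2, 2 of 14 were higher and 7 lower, where 31.4% of all tested genes were higher and 28.9% lower. Lgals3 (-4.88), H2-Ab1 (-4.96) and the PD-1 ligand gene Pdcd1lg2 (-0.92) were lower. Ceacam1 was also called lower (-3.71), but with 2.86 and 5.75 normalised reads in anti-IL-2 libraries, against 79.0 and 54.6 in untreated libraries, it was tested only because its untreated libraries reached 10. The list medians were -0.36 in the knockout and -0.12 with anti-IL-2, against medians of all genes near 0 as given above. H2-Ab1 is also a B cell and dendritic cell gene. H2-Aa, another MHC class II chain gene on the list, had few reads throughout. It had 6.89 and 10.8 normalised reads in knockout libraries, against 24.3 and 36.5 in control libraries (log2 fold change -1.68). Nectin2 had 6.89 and 4.90 in knockout libraries, against 16.2 and 16.2 in control libraries. Both are among the 8 lower, but were tested in the knockout only because their control libraries reached 10. With anti-IL-2 H2-Aa had 7.64 and 11.5, against 7.27 and 10.3 in untreated libraries. Unlike H2-Ab1, it did not pass there (log2 fold change 0.10, limma adjusted p = 0.850).

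Costimulatory receptors, which share ligands or families with the checkpoint receptors, had 5 of 10 genes higher and 5 lower in the knockout, where 32.9% of all tested genes were higher and 28.2% lower. Cd28, which shares CD80 and CD86 with CTLA-4, had 3352 and 3186 normalised reads in knockout libraries, against 6447 and 6585 in control libraries (log2 fold change -0.995, limma adjusted p = 1.35e-05). Icos (-0.92), Crtam (-0.84) and Cd2 (-0.61) also fell. With anti-IL-2, 2 were higher and 7 lower, against 31.4% and 28.9% of all tested genes, and Cd28 (-1.89), Tnfrsf9 (-1.84), Crtam (-1.83), Cd2 (-1.81) and Icos (-1.78) fell by similar amounts. The 2 genes higher with anti-IL-2 were Cd226 (1.79), whose product competes with TIGIT, and Tnfrsf18 (0.31). Both also rose in the knockout (0.45 and 0.44). The list median was -0.13 in the knockout and -1.04 with anti-IL-2.

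Signalling and trafficking partners of the receptors had 13 of 19 genes higher and 5 lower in the knockout, against 32.9% and 28.2% of all tested genes, with a median log2 fold change of 0.17. Ptpn6, the SHP-1 phosphatase gene, had 2875 and 2856 normalised reads in knockout libraries, against 1838 and 1759.8 in control libraries (log2 fold change 0.67). Ubash3a, a suppressor of T cell receptor signalling, rose by 0.97 and the adaptor gene Dok2 by 0.83. With anti-IL-2, 8 were higher and 7 lower (median 0.041), against 31.4% and 28.9% of all tested genes. Ptpn6 (0.92) and Ubash3a (1.12) were again higher, while the ubiquitin ligase gene Cblb (-1.46), the phosphatase gene Ptpn22 (-1.16) and the adaptor gene Sh2d1a (-1.90) were lower.

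Transcription factors linked to checkpoint genes had 8 of 24 genes higher and 12 lower in the knockout (median -0.044), against 32.9% and 28.2% of all tested genes, so the share higher was close to that of all genes. Stat5a, which relays interleukin 2 signals, had 13783 and 13733 normalised reads in knockout libraries, against 8618 and 8421 in control libraries (log2 fold change 0.69). Stat5b rose by 0.72, while Tbx21, the T-bet gene, and Nfatc1 fell by 0.89 and 0.67 on the log2 scale. With anti-IL-2, 4 of 23 were higher and 17 lower (median -0.72), against 31.4% and 28.9% of all tested genes. Id3, an inhibitor of E proteins, was higher (1.89), while Id2 (-2.14), Tbx21 (-1.65), Nr4a2 (-1.45), Nfatc1 (-0.61) and Stat5a (-0.30) were lower. Stat5b did not pass with anti-IL-2 (log2 fold change -0.055, limma adjusted p = 0.347).

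Other inhibitory receptors had 5 of 11 genes higher and 3 lower in the knockout, and 3 of 10 higher and 5 lower with anti-IL-2. All tested genes were 32.9% higher and 28.2% lower in the knockout and 31.4% higher and 28.9% lower with anti-IL-2, so the shares lower in the knockout and higher with anti-IL-2 were close to those of all genes. Klrc1, the NKG2A gene, had 512 and 509.7 normalised reads in knockout libraries, against 2634 and 2736 in control libraries (log2 fold change -2.39). It was also lower with anti-IL-2 (-3.14). Lilrb4a fell in both (-1.95 and -3.10), and Slamf6 rose in both (0.70 and 0.54). In the ATP and adenosine pathway, in which CD39 acts, 1 of 7 genes was higher and 2 lower in the knockout, and 3 of 8 were higher and 4 lower with anti-IL-2, to be read against the same shares of all genes. Nt5e, the CD73 gene whose enzyme follows CD39, did not pass in the knockout (log2 fold change 0.20, limma adjusted p = 0.0670) and fell with anti-IL-2 (-0.88). Cd38, a nucleotide-degrading enzyme gene, had 99.5 and 102 normalised reads in knockout libraries, against 34.5 and 34.5 in control libraries, and 23.9 and 34.5 with anti-IL-2 against 83.1 and 75.2 in untreated libraries.

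**Figure D4:**
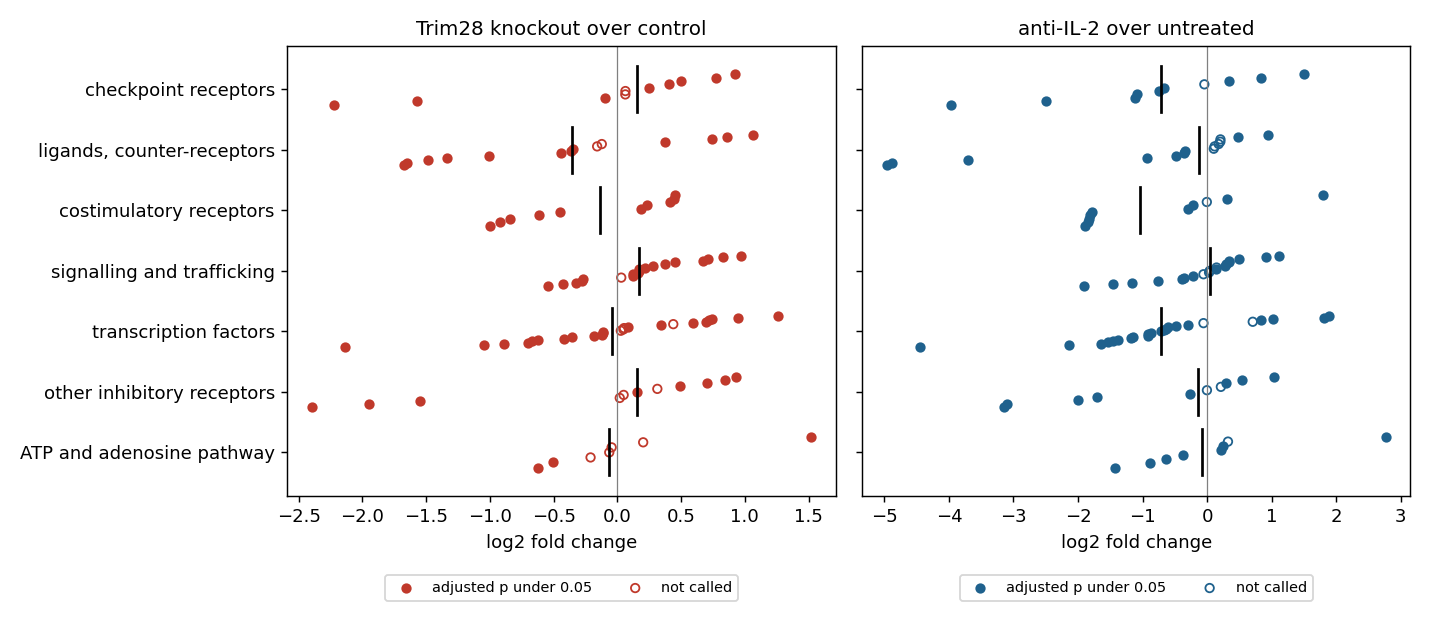
Log2 fold changes of the checkpoint genes and of 6 lists of related genes, for Trim28 knockout over control (left) and anti-IL-2 over untreated (right). Each point is a gene, filled where the limma adjusted p was under 0.05, and the bar is the list median; costimulatory receptors and transcription factors lie mostly below 0 with anti-IL-2.

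Genomic neighbours of the checkpoint genes moved with them in some cases and not in others. Ctla4 lies between Cd28 and Icos on chromosome 1, and both neighbours fell by much more than Ctla4 in the knockout (-0.995 and -0.917, against -0.096). With anti-IL-2 all 3 fell, Ctla4 by 1.12 and its neighbours by 1.89 and 1.78 on the log2 scale. Lag3 and its neighbour Ptms, 1.98 kb away, shared both directions, with Ptms at 0.24 in the knockout and -0.34 with anti-IL-2. Cd6, a relative of Cd5 in the same region, rose in the knockout (0.42) but fell with anti-IL-2 (-0.29), where Cd5 rose. Btla and Cd200, 124 kb apart with no tested protein-coding gene between them, both rose with anti-IL-2. Zbtb20, next to Tigit, fell in both experiments (-1.0005 and -1.16), while Tigit fell only with anti-IL-2. Med7, the neighbour of Havcr2, fell by 0.36 and 0.53 on the log2 scale.

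The genes with the most similar pair of log2 fold changes were sought among 8737 genes tested in both experiments. These had a mean of at least 10 CPM over the 8 libraries. Likeness was the straight-line distance between the pairs of log2 fold changes. Havcr2 and Entpd1 themselves lay below that mean, so genes of their level were not searched. The nearest genes for Havcr2 were Egln3, an oxygen-sensing prolyl hydroxylase gene (-2.04 and -4.33, distance 0.407), Serpina3g and Serpina3f. For Lag3 they were Srgap3, Pld3 and 2900026A02Rik (distances 0.053 to 0.087), and for Cd160 they were Gch1, Capg and Cdyl2. Btla was nearest to the DNA repair gene Brca2 (0.46 and 1.43), Arhgap39 and Phf19, and among those nearest to Cd5 were Twnk and Ring1. Among those nearest to Ctla4 were Gm29257 and Fosl1, and Entpd1 was nearest to Fasl, the Fas ligand gene (-1.55 and -2.57), Bnip3 and Trib2. Entpd1 is placed only roughly, from 12 reads in the knockout and 7 with anti-IL-2. Under other settings its log2 fold changes ranged from -1.78 to -1.16 in the knockout and from -2.85 to -1.77 with anti-IL-2. Those ranges are wider than its distance to Fasl (0.069).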

How the data were processed

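The values analysed are those the authors deposited per gene and library, a normalised signal: gene read counts divided by a size factor within each experiment. Per the submitters' processing notes, the tools were HISAT2 2.2.1, Trim Galore 0.4.4, DESeq2 and StringTie 2.1.4, with mm10; the read counter, its strand setting and the annotation are not given in the sources used here, so reads of overlapping genes could not be separated. The authors' deposited log2 fold changes, coded control over knockout and untreated over anti-IL-2, and adjusted p-values served only as a comparison. The test planned for raw counts was not needed, since limma on scaled values was the planned test for such files.

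Genes reaching 10 in 2 or more libraries were compared as log2(value + 1), which understates changes of low genes, with limma 3.58.1 (trend) in R 4.3.3, adjusted over all tested genes (Benjamini-Hochberg) and called under 0.05. The experiments had separate fits, and a joint fit of the 8 libraries gave the difference of effects. Whole reads were recovered from 100% of values (tolerance 0.001). On them edgeR 4.0.16 called 9119 genes in the knockout, 8409 with anti-IL-2 and 5086 for the difference, and DESeq2 1.42.0 was also run. Recovered reads per library were 13398371 and 13469789 (knockout), 13254136 and 13222831 (control), 17042931 and 17069569 (anti-IL-2) and 16653962 and 16618750 (untreated), and intervals on them cover counting error only. Replicates differed by more than counting noise (chi-square per degree of freedom 1.32 to 3.87), so none was counted once. The anti-IL-2 columns carry no replicate number and are called A and B. RPKM used GENCODE M21 exons (GRCm38). Promoters are RefSeq sequences on GRCm38.p6.

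The checkpoint genes, the gene lists and the tests were chosen with earlier results of these data known. Besides the 10 genes and checks, the text names up to 4 called genes per list and comparison with the smallest adjusted p, the nearest tested protein-coding genes, and the 3 genes closest in both fold changes to each checkpoint gene called in both experiments; a few genes this rule or the marker lists name are not reported here. A few more list genes are named where a count or a direction needs them. Calculations were tested on simulated data. Those data held neither changes as small as that of Ctla4 in the knockout nor genes as low as Entpd1.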

Additional observations from a re-analysis of the deposited data

How the results depend on the processing

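No checkpoint gene called under the reported settings changed direction under any alternative tried. The alternatives were edgeR and DESeq2 on recovered reads, TMM and upper-quartile rescaling, pseudocounts of 0.5 and 5, no filter and a filter at 50, limma without the trend, 1 fit of all 8 libraries, the replicate number as a block and leaving out each library. Ctla4 lost its call in the knockout also without a filter (adjusted p = 0.0523), without the trend (0.141) and in 1 fit of all 8 libraries (0.0582), and Cd200 gained a call as higher without a filter (0.0452). DESeq2 called 5506 genes in the knockout (reported: 9409) and 2878 for the difference of the effects (reported: 4996). With the replicate block in the Trim28 experiment, 9078 genes and 7 checkpoint genes (5 higher, 2 lower) were called. Libraries with the same number did not deviate together (correlation across genes 0.0127 over 15415 genes), so the numbers were not taken to pair the samples. The anti-IL-2 columns carry no number, so no paired analysis was possible because the groups there share none. A library left alone in its group was assumed to vary like the other group. Without 1 library the called checkpoint genes numbered 6 to 7 in the knockout and 7 to 10 with anti-IL-2. Entpd1 without a control library, and Havcr2 and Entpd1 without an untreated library, fell under the filter and were not tested, and neither was Entpd1 with the filter at 50. Depth limits Entpd1, with 12 or fewer reads in each of the knockout and anti-IL-2 groups.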

Other observations

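Pseudogenes inside 2 of the checkpoint genes differed widely between the experiments. Rpl18-ps1, a processed pseudogene within the body of Ctla4 on the same strand that overlaps none of its exons, had normalised read counts of 2717 and 2989 in Trim28 knockout libraries and 4454 and 3908 in control libraries. In the IL-2 experiment it had 19.1 and 34.5 in anti-IL-2 libraries and 41.6 and 35.0 in untreated libraries. Gm8783, a processed pseudogene within Entpd1, had 78.8 and 78.4 in knockout libraries and 85.2 and 83.1 in control libraries, but 0 and 1.92 in anti-IL-2 libraries and was listed at 0 in both untreated libraries. The tables were normalised separately, processed pseudogenes can share reads with their parent genes, and whether the 2 tables were counted in the same way was not tested.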
